A study of Mus musculus with 2 samples.

Results

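Cycling cells of the mouse cerebral cortex, that is, cells with transcripts of the machinery of division, were taken from all lineages of a control and a white matter injury (WMI) library. A barcode was kept with at least 1000 unique molecular identifiers (UMIs, each a counted RNA molecule), 500 genes and at most 10% of UMIs from mitochondrial genes. Members were selected on the measured values themselves: a kept barcode was taken as cycling when at least 3 of the 6 genes Mki67, Top2a, Knl1, Kif15, Cenpf and Aspm had 1 or more UMIs. This gave 127 cycling cells of 17653 kept barcodes, 47 of 9540 in the control library and 80 of 8113 in the WMI library.

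Both groups were C57BL/6 mice, 2 weeks old at sampling on postnatal day 14. In the WMI group the right common carotid artery had been tied off on postnatal day 7 with 1 h of hypoxia, and the cortex of that side was taken, beside the cortex of the same side from control mice. The labels print the same surgery and hypoxia text for the control sample, although they call only the experimental group's cortex ligated, so what the control mice underwent is not clear from them. These times are the labels'. The study's methods give an earlier day of surgery and a longer hypoxia, and its text an earlier day of sampling. Each group was a single droplet (10x Genomics) library. The study's methods speak of replicates of each group, but no file used here assigns cells to animals. The labels describe nuclei and the study's methods a dissociation of cells. The control library held 10288 barcodes and 66470806 UMIs, with a median of 4727.5 UMIs per kept barcode, and the WMI library 8354 barcodes and 60568639 UMIs, with a median of 5267 UMIs. With 1 library per group, library and group cannot be told apart and no difference has a replicate check, so values are given with exact 95% intervals that cover counting error only.

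A dividing cell copies its DNA in S phase, passes G2 and segregates its chromosomes in mitosis, and the transcripts for replication and for the spindle accumulate in that order. In the early postnatal cortex, oligodendrocyte (OL) precursor cells (OPCs) divide within the tissue before some of them leave the cycle and become premyelinating OLs (pre-OLs) and then mature, myelin-forming OLs. Microglia, the resident myeloid cells, also divide locally, astrocytes divide mainly in the first postnatal weeks, neuroblasts arise from progenitors near the ventricles, and neurons do not divide.

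All 6 genes of the selection serve late steps of the cycle. Ki-67, the product of Mki67, coats mitotic chromosomes, and Top2a encodes the topoisomerase that untangles sister DNA. Knl1 is a kinetochore scaffold, Cenpf associates with kinetochores, Kif15 is a spindle kinesin and Aspm acts at spindle poles. Selection by these genes takes cells from later S phase to mitosis and gives no account of cells in G1.

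Promoter windows, 250 bases before to 50 after the transcription start, were read for these genes from RefSeq (build GRCm38.p6) because genes of mitosis are known to share a CHR element, here the letters TTTGAA on either strand, often with a CCAAT box. Windows on a whole chromosome were left out, here and for the lists below. All 6 genes matched a window and all 6 windows held TTTGAA, against 17.9% of the 32851 windows read, and 4 of the 6 held CCAAT, against 37.4%. Those 4 are shown with both motifs in capitals, for Mki67 (chr7:135716330-135716629, minus strand), Top2a (chr11:99024140-99024439, minus strand), Cenpf (chr1:189688037-189688336, minus strand) and Aspm (chr1:139454523-139454822, plus strand), each 5′ to 3′ along the strand of the gene.
Mki67: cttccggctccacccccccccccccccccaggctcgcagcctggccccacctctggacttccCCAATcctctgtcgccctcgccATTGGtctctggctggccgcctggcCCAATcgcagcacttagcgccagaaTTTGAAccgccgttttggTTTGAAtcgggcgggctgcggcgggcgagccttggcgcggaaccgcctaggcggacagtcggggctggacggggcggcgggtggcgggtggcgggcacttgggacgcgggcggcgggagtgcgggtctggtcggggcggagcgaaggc
Top2a: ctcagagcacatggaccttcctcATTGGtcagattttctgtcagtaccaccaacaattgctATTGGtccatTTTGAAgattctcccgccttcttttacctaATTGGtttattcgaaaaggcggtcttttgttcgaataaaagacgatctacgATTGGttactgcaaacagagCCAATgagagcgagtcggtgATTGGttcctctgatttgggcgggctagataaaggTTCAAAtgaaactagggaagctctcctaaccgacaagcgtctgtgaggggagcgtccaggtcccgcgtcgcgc
Cenpf: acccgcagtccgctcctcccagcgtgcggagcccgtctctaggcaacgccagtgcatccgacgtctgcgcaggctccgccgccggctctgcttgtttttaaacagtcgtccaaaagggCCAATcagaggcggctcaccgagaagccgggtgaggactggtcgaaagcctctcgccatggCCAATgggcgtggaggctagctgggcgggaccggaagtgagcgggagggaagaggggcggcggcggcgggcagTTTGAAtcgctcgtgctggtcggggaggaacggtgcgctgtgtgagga
Aspm: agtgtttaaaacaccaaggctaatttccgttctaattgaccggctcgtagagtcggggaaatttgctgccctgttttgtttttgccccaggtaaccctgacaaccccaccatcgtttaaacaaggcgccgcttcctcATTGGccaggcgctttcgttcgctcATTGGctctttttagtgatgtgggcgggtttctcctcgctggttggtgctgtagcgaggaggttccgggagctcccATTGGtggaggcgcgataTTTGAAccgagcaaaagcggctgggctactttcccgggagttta
Counted from the start site, the TTTGAA letters began at positions 3 in Cenpf and 7 in Aspm, at -116 and -98 in Mki67 and at -179 and -23 in Top2a. Of the 54 genes of a mitotic (G2/M) list, which includes genes of the selection, 47 matched 52 windows, and 65.4% of these held TTTGAA and 75.0% CCAAT. Of the 43 genes of a replication (S) list, 31 matched 34 windows, and 17.6% of these held TTTGAA and 67.6% CCAAT. The E2F site TTTGGCGC was in 14.7% of the S windows, 1.92% of the G2/M windows and 0.514% of all windows, and TTTCGCGC in 11.8%, 1.92% and 0.323%. These matches describe letters in a window, not binding.

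Among kept control barcodes, 8815 held none of the 6 genes, 648 held 1, 30 held 2, 12 held 3, 13 held 4, 11 held 5 and 11 held all 6. The corresponding numbers in the WMI library were 7236, 731, 66, 23, 24, 18 and 15. The numbers fell steeply up to 2 genes and were nearly level from 3 to 6.

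**Figure D1:**
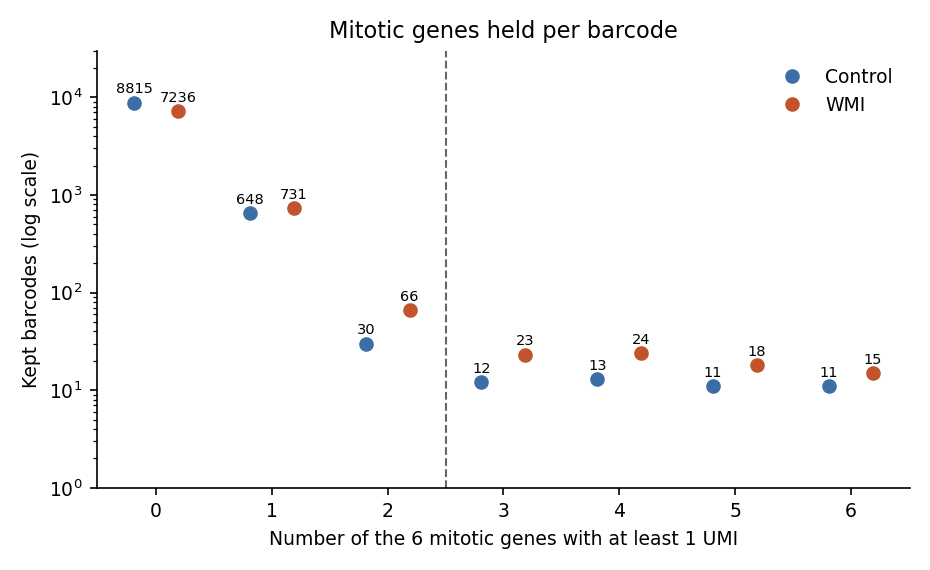
Number of kept barcodes (log scale) against the number of the 6 mitotic genes with at least 1 UMI, for the control and the WMI library, with the count printed above each point. The dashed line marks the selection: 47 control and 80 WMI barcodes lay to its right, and 30 and 66 held 2 genes, just left of it.

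Cells on either side of the limit differed in other mitotic genes that played no part in the selection, namely Cenpe, Kif11, Tpx2, Ect2, Bub1 and Kif4. Of the control cells with 3 selection genes, 10 of 12 held at least 1 of these, and of those with 2 selection genes 9 of 30 did. In the WMI library the counts were 21 of 23 and 19 of 66. Of the control cells with 2 genes, 15 of 30 were neuron-like, and their median depth was 9579.5 UMIs, against 4642.5 UMIs for cells with 3 genes. Of the WMI cells with 2 genes, 19 of 66 were neuron-like.

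Top2a was the most often detected selection gene, with UMIs in 42 of 47 control and 73 of 80 WMI cycling cells, and Aspm the least, in 24 and 30. Summed over cycling cells, Top2a stood at 500 CPM, that is, UMIs of the gene per 1000000 UMIs of those cells, in the control (95% interval 433 to 574) and 529 in the WMI library (468 to 596), against 1.57 and 2.76 CPM in all other cells. Kif15 was at 173 CPM in control cycling cells (134 to 218) and 317 in WMI cycling cells (270 to 369). Mki67 was at 200 and 220 CPM, Knl1 at 305 and 330 CPM and Cenpf at 173 and 205 CPM. As these genes made the selection, their levels are a description and no comparison of the libraries. Their intervals also take UMIs of the same cell as independent.

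Neuron-like cells, which should not divide, gave the background of the selection. In the control library 4 of 7357 neuron-like cells met it, a share of 0.0544% (0.0148% to 0.139%) at a median of 4440 UMIs. In the WMI library 2 of 2760 did, a share of 0.0725% (0.00878% to 0.262%) at a median of 9512 UMIs. Of these 6 cells, 3 of 4 and 1 of 2 were predicted doublets, that is, barcodes resembling a simulated pair of cells. The shares in OPC-like, myeloid-like and neuroblast-like cells given next lay above this background in both libraries, while the astrocyte-like share of the control library, 0.172%, was within its counting error of it.

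Over all kept barcodes, 0.493% of control cells cycled (0.362% to 0.655%), against 0.986% of WMI cells (0.783% to 1.23%). The WMI share was thus 0.493 percentage points higher (0.233 to 0.766). When each barcode was thinned to 2000 UMIs, which only 8787 of the 9540 control and 7320 of the 8113 WMI barcodes reached, 26 and 36 cells met the selection and the difference was 0.196 points (-0.00536 to 0.410). At 1000 UMIs it was 0.0431 points (-0.0702 to 0.166), from 10 and 12 cells. The excess in WMI thus kept its direction at equal depth, and its interval then included 0.

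Lineages were taken from clusters of all kept barcodes, made without cell-cycle genes and named from marker genes. OPC-like cells were the most numerous cycling cells in both libraries, with 22 of 47 in the control, or 46.8% (32.1% to 61.9%), and 31 of 80 in the WMI library, or 38.8% (28.1% to 50.3%). Myeloid-like cells came next, with 9 of 47, or 19.1% (9.15% to 33.3%), and 28 of 80, or 35.0% (24.7% to 46.5%). Neuroblast-like cells made up 8 control and 6 WMI cycling cells, astrocyte-like cells 1 and 5, endothelial-like cells 2 and 1, and fibroblast-like cells 0 and 1. The rest were 4 and 2 neuron-like cells and 1 and 6 cells of unnamed clusters. None of the 613 pre-OL-like and 153 mature OL-like cells of both libraries met the selection, which allows shares of up to 0.489% and 1.96% when a count of 0 is taken as at most 3 cells, a limit that is slightly lower than that of the exact interval. These counts of 0 rest on the cluster names. Named by their own markers, 2 control and 3 WMI cycling cells of the OPC-like cluster were called pre-OL. So was 1 WMI cycling cell of an unnamed cluster. The order of the leading lineages was not stable in the WMI library. There, myeloid-like cells outnumbered OPC-like cells after thinning to 2000 UMIs (17 against 14) and to 1000 UMIs (7 against 2), with at least 2 of the 6 genes (43 against 39), and when each cell was named by its own markers (31 against 18) or its likeliest class profile (33 against 30). In the control OPC-like cells led in each of these except at 1000 UMIs, with 3 against 4 cells.

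**Figure D2:**
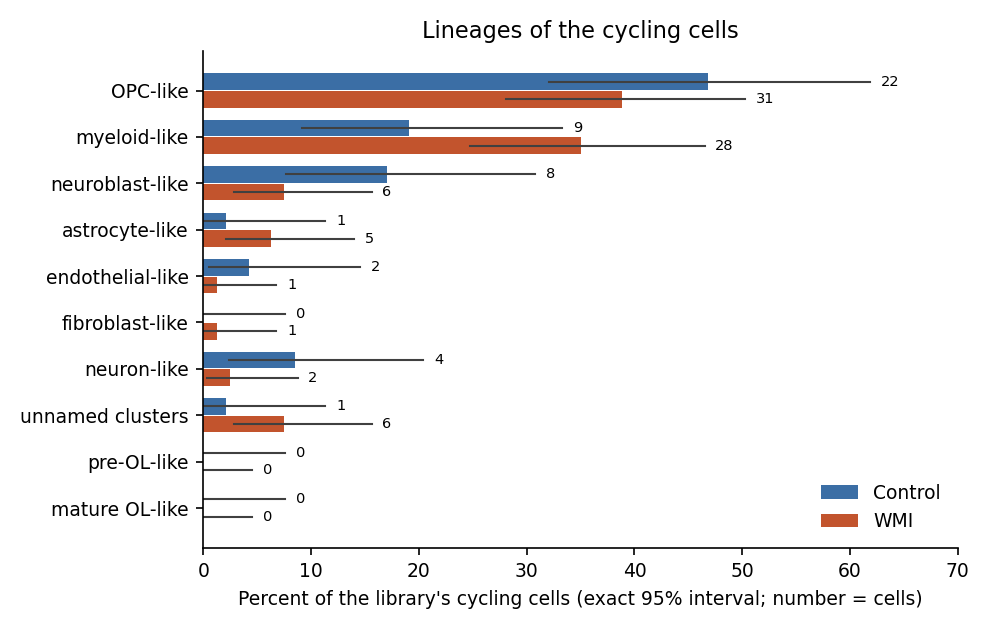
Percent of each library's cycling cells (horizontal axis) that lay in each class, with exact 95% intervals as lines and the number of cells at their end. OPC-like cells numbered 22 and 31 and myeloid-like cells 9 and 28, an order that turned in the WMI library under 5 alternative ways of counting.

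The OPC-like share of cycling cells differed between libraries by -8.06 points, WMI minus control, with an interval of -26.6 to 10.6. The myeloid-like share differed by 15.9 points, with an interval of -1.64 to 31.1. Both intervals included 0. For the myeloid-like share the interval lay above 0 with at least 2 of the 6 genes (4.43 to 26.9), with cells named by their own markers (1.90 to 34.9) and by class profile (4.27 to 37.4).

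Within the classes, the share of cells that cycled was close between libraries in the main dividing lineages. Of OPC-like cells, 22 of 369 cycled in the control, 5.96% (3.77% to 8.89%), and 31 of 561 in the WMI library, 5.53% (3.79% to 7.75%). The difference was -0.436 points (-3.84 to 2.69), an interval that leaves room for changes in either direction. Of myeloid-like cells, 9 of 468 cycled in the control, 1.92% (0.883% to 3.62%), and 28 of 1508 WMI cells did so, 1.86% (1.24% to 2.67%). The shares differed by -0.0663 points (-1.87 to 1.26). Of astrocyte-like cells, 1 of 580 and 5 of 668 cycled, 0.172% and 0.749%, a difference of 0.576 points (-0.357 to 1.58). With cells named by their own markers it was 0.900 points (0.115 to 1.84), from 0 of 643 and 7 of 778 cells. Neuroblast-like cells had the highest control share, 12.9% or 8 of 62 (5.74% to 23.9%), against 4.38% or 6 of 137 (1.62% to 9.29%) in the WMI library, and that difference, -8.52 points, had an interval of -19.8 to 0.161. These shares rest on the cluster's name, which only 1 of the 8 control cycling cells was given by its own markers.

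Thinned to 2000 UMIs, 12 of 368 control and 14 of 546 WMI OPC-like cells cycled, 3.26% and 2.56%. For myeloid-like cells the thinned shares were 1.86% and 1.39%, from 8 of 430 and 17 of 1226 cells, after 38 control and 282 WMI cells were left out. For neuroblast-like cells 3 cells remained in each library, 4.84% and 2.33%. The 5 astrocyte-like WMI cells became 1 of 655, 0.153%, against 1 of 570, 0.175%, in the control, so that the direction of their difference turned.

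Summed over all cells of a class, with no limit per cell, levels in the 3 lineages with most cycling cells were highest in neuroblast-like cells in both libraries, followed by OPC-like and myeloid-like cells. The 6 selection genes together, whose sums share UMIs with the selection, were at 142 CPM in control OPC-like cells (126 to 158) and 148 CPM in WMI OPC-like cells (134 to 163). In myeloid-like cells they were at 89.7 CPM (75.7 to 106) and 96.2 CPM (87.8 to 105), and in neuroblast-like cells at 307 CPM (250 to 373) and 190 CPM (156 to 229). Astrocyte-like cells stood at 23.2 CPM (18.4 to 29.0) and 37.0 CPM (31.2 to 43.6), pre-OL-like cells at 19.3 and 17.9 CPM and neuron-like cells at 11.6 and 11.4 CPM. The 6 other mitotic genes, which the selection did not use, gave 84.7 and 91.1 CPM in OPC-like cells, 50.5 and 54.8 CPM in myeloid-like cells and 179 and 117 CPM in neuroblast-like cells. The intervals of the libraries overlapped for OPC-like and myeloid-like cells on both sets of genes. For neuroblast-like and astrocyte-like cells they did not overlap on the 6 selection genes and did on the 6 others. UMIs of the same cell are not independent, so these intervals are too narrow for a comparison of cells.

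**Figure D3:**
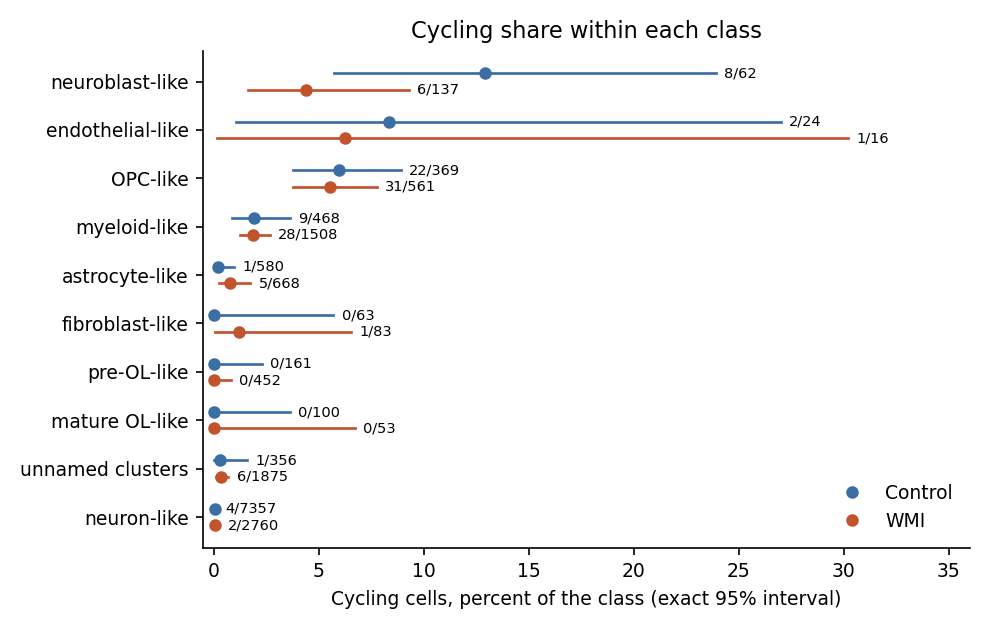
Percent of each class that cycled (horizontal axis) in the control and the WMI library, with exact 95% intervals as lines and cycling over all cells of the class printed beside them. OPC-like cells stood at 5.96% and 5.53% and myeloid-like cells at 1.92% and 1.86%, with wide overlap.

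For OPC-like and myeloid-like cells, the size of the class differed more between libraries than the share of it that cycled. Myeloid-like cells were 4.91% of kept control barcodes and 18.6% of kept WMI barcodes, OPC-like cells 3.87% and 6.91%, and neuron-like cells 77.1% and 34.0%. Cells of unnamed clusters were 3.73% and 23.1%. They included cluster 6, with markers of excitatory neurons and myeloid cells and 24 control and 1000 WMI cells. The neuron-like and myeloid-like sizes thus depend on where cluster 6 is counted. With the control's cycling share in every class and the WMI library's class sizes, 89.4 cycling cells, 1.10% of kept barcodes, would be counted, against the 80, or 0.986%, that were. With the WMI shares and the control's class sizes the number would be 44.9, or 0.470%, against 47, or 0.493%. Both numbers are without an interval. The neuroblast-like class, with 8 of 62 control and 6 of 137 WMI cells cycling, weighs on both. Which of these class sizes reflect the tissue and which the recovery of cells was not tested.

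The libraries also differed in ways that no comparison of 1 library each can separate. Xist, transcribed from the inactive X chromosome of female cells, had UMIs in 48 of 80 WMI cycling cells and 0 of 47 control cycling cells, and in 5172 of 8033 other WMI cells and 5 of 9493 other control cells. The median mitochondrial share of cycling cells was 0.154% in the control and 0.588% in the WMI library. Their part in the results was not tested. Cells without Xist UMIs are not of known sex, as the labels give none and low depth can hide the transcript. Among OPC-like cells without Xist UMIs, 22 of 369 control and 15 of 201 WMI cells cycled, 5.96% and 7.46%, a difference of 1.50 points (-2.85 to 6.55). Among all cells without Xist UMIs the overall difference was 0.613 points (0.229 to 1.08), that of the myeloid-like cycling share -0.521 points (-2.40 to 1.18), and the myeloid-like and OPC-like shares of cycling cells differed by 5.85 points (-13.7 to 26.8) and 0.0665 points (-23.3 to 23.6), in place of 15.9 and -8.06. The libraries had 34 kept barcodes in common and no cycling one.

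Cycling OPC-like cells held the markers of their class about as often as the other OPC-like cells. They held a median of 6 of 10 OPC markers in the control and 7 in the WMI library, with a lowest count of 4 and 5, against medians of 6 in the other OPC-like cells of both libraries. Pdgfra, the receptor for the main OPC mitogen, was at 470 CPM in control and 390 CPM in WMI cycling OPC-like cells, and at 416 and 395 CPM in the others. Summed over all 10 markers, of which none was at 0, the level was 9616 against 11196 CPM in the control and 11156 against 12204 CPM in the WMI library, cycling against other cells. The most abundant marker was Lhfpl3 in each. C1ql1, a secreted C1q-like protein, was the marker with the lowest ratio in both libraries, at 29.4 against 71.3 CPM in the control and 44.4 against 106 CPM in the WMI library. No cycling OPC-like cell held 6 or more of the 12 myeloid markers, and 2 of 22 control and 3 of 31 WMI cells held 6 or more astrocyte markers, against 25 of 347 and 48 of 530 of the other OPC-like cells. Named by its own markers alone, a cycling OPC-like cell was called OPC in 11 of 22 control and 17 of 31 WMI cases, and 7 and 10 were left without a name. Of the rest, 2 control and 3 WMI cells were called pre-OL, 2 control cells excitatory neuron and 1 WMI cell astrocyte.

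Cycling OPC-like and myeloid-like cells were deeper than the others of their class. Medians were 6332 against 5149 UMIs in control OPC-like cells, 6211 against 4339 in WMI OPC-like cells, 4340 against 3130 in control myeloid-like cells and 4971 against 2857.5 in WMI myeloid-like cells. Predicted doublets were 3 of 22 and 1 of 31 cycling OPC-like cells, against 19.0% and 8.87% of the other OPC-like cells. Among cycling myeloid-like cells they were 1 of 9 and 0 of 28.

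Within OPC-like cells, levels were compared between cycling and other cells in each library, for 9418 genes with at least 50 UMIs in all OPC-like cells. As background, 1.94% of these genes (183) were at least 2-fold higher and 0.287% (27) at least 2-fold lower in cycling cells of both libraries. A gene that is high in cycling cells can reach 50 UMIs through them, which favours higher genes in the count. Of the 9418 genes, 351 reached it only with the cycling cells, and among the 9067 that had 50 UMIs in the other OPC-like cells alone, a minimum added after seeing the data, 1.35% (122) were at least 2-fold higher in both libraries. Counts of higher genes below are over genes of the latter kind, and summed levels are over all genes of a list without a minimum. Since selected cells share the cell cycle by choice, both describe the cells and are no test. The median log2 ratio over all genes compared was -0.03 in the control and -0.08 in the WMI library.

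The 28 spindle motor and microtubule genes listed, without the selection genes, summed to 2864 CPM in control and 2693 CPM in WMI cycling OPC-like cells, against 248 and 242 CPM in the others, log2 ratios of 3.53 (3.35 to 3.71) and 3.47 (3.31 to 3.64). Of these genes 15 reached the minimum, 11 of them only with the cycling cells, and 3 of the other 4 passed the 2-fold limit in both libraries, namely Ckap5, G2e3 and Kif24. Tpx2, which activates Aurora A at the spindle, was at 182 CPM in control and 169 CPM in WMI cycling OPC-like cells and at 2.91 and 3.48 CPM in the others. Kif4, a chromosome-bound kinesin, was at 200 and 129 CPM against 0.971 and 2.71 CPM. Kif11, the motor that separates spindle poles, was at 141 and 204 CPM against 3.40 and 5.42 CPM. Ckap5, a microtubule polymerase that many resting cells also use, was higher by less, at 347 and 364 CPM against 127 and 117 CPM.

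The 14 genes of the mitotic kinase list summed to 670 and 683 CPM against 30.6 and 39.1 CPM, and none had 50 UMIs in the other cells alone. Incenp, the scaffold of the chromosomal passenger complex, was at 112 and 62.1 CPM against 5.34 and 7.35 CPM. The 27 centromere and kinetochore genes summed to 2323 and 2129 CPM against 309 and 310 CPM, and 3 of the 5 with enough UMIs in the other cells passed. Cenpe, a kinetochore kinesin, was at 188 and 182 CPM against 3.88 and 3.87 CPM, and Cenpp, a constitutive centromere protein, at 341 and 346 CPM against 28.2 and 19.7 CPM. Of the spindle checkpoint and anaphase genes, 1 of 4 passed, namely Bub3, a checkpoint protein, although the 11 listed genes summed to 635 and 590 CPM against 167 and 183 CPM. The 10 cytokinesis genes summed to 1317 and 1291 CPM against 184 and 189 CPM, and 1 of 2 passed, namely Diaph3. Ect2, the exchange factor that starts the cleavage furrow, was at 171 and 138 CPM against 2.91 and 3.87 CPM, and Diaph3, a formin, at 453 and 572 CPM against 55.8 and 71.2 CPM. Of the condensin and cohesin genes, 6 of 9 passed, with the condensin subunits Smc4, at 176 and 177 CPM against 13.1 and 16.3 CPM, and Ncapd2, at 176 and 200 CPM against 12.6 and 19.4 CPM.

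Replication genes were higher too, by smaller factors than the spindle motor, mitotic kinase, kinetochore and cytokinesis lists. Not every mitotic list had a larger factor. In the WMI library the licensing and fork genes were 4.25-fold higher and the spindle checkpoint and anaphase genes 3.22-fold. In the control these lists were close. The DNA repair and Fanconi list had a larger factor than the condensin and cohesin list in both libraries. The 41 licensing and fork genes summed to 1500 and 1881 CPM against 398 and 443 CPM, and 6 of 11 passed. Pola1, the catalytic subunit of the polymerase that starts each new strand, was at 323 and 475 CPM against 81.5 and 94.8 CPM, and Atad2, a chromatin ATPase, at 153 and 213 CPM against 15.0 and 16.6 CPM. Of the DNA repair and Fanconi genes, which summed to 1335 and 1455 CPM against 226 and 254 CPM, 4 of 7 passed. Brip1, a helicase of the Fanconi pathway, was at 76.5 and 133 CPM against 3.40 and 6.97 CPM, while Rad51b, a gene of recombination repair, was at 147 and 311 CPM against 26.2 and 32.5 CPM. Among nucleotide supply genes 1 had enough UMIs in the other cells and it did not pass. Tyms, the thymidylate synthase, was at 58.8 and 57.7 CPM against 8.74 and 7.74 CPM. Centriole duplication genes passed in 5 of 6 cases and chromatin upkeep genes in 2 of 6.

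Among regulators, 0 of 4 cyclin and CDK genes, 1 of 6 brakes and 2 of 9 cell-cycle transcription factors passed. The last were Mybl1, a MYB family factor, with log2 ratios of 2.73 and 2.71, and Lin9, a subunit of the complexes that switch these genes on and off, at 88.2 and 71.0 CPM against 12.6 and 11.6 CPM. Among the brakes, the pocket protein Rbl1 was at 106 and 102 CPM against 12.6 and 12.8 CPM, Rb1, with log2 ratios of 0.56 (-0.10 to 1.16) and 0.34 (-0.31 to 0.92), was closer to the other cells, and Rbl2 was at 23.5 and 22.2 CPM against 35.4 and 29.8 CPM. Rbl1 thus had the higher ratio of the 3 pocket protein genes in both libraries. Summed over all 18 cyclin and CDK genes listed, the level was 2.92-fold higher in the control and 2.36-fold higher in the WMI library. Cdc25c, the phosphatase that releases cells into mitosis, had 9 UMIs in control and 15 in WMI cycling cells and 0 and 2 in all other OPC-like cells.

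**Figure D4:**
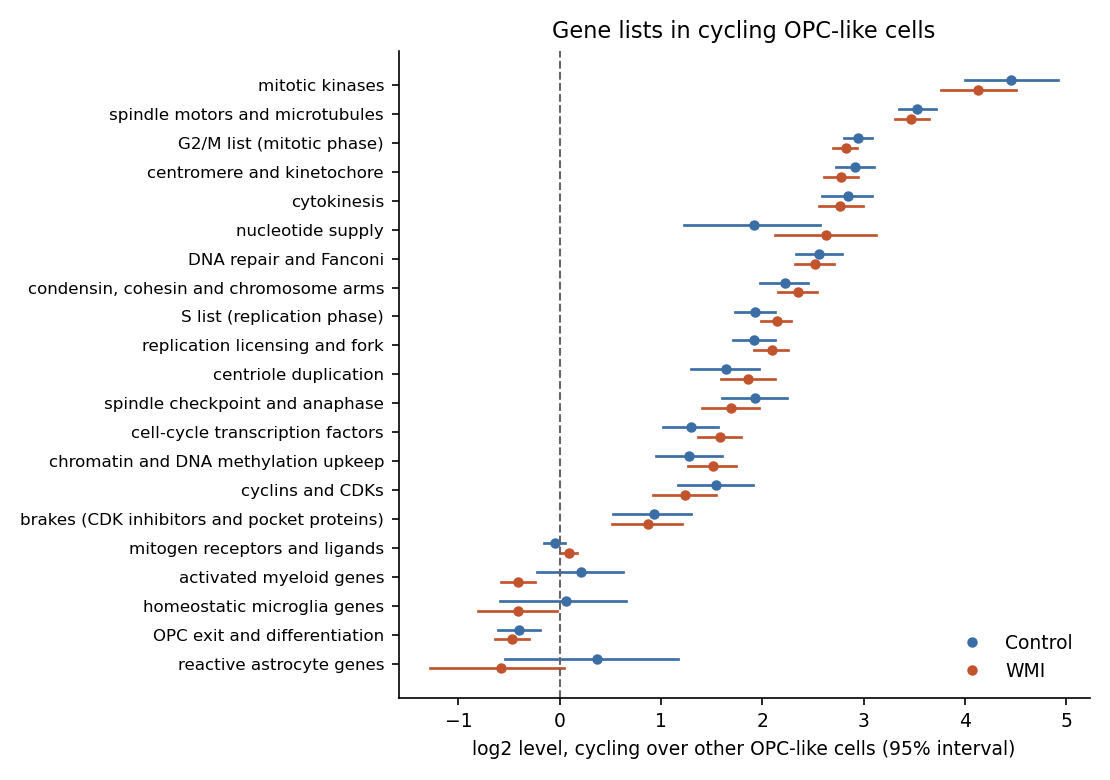
Summed level of each gene list in cycling over other OPC-like cells (log2, horizontal axis), for the control and the WMI library, without the 6 selection genes, with 95% intervals for counting error. Mitotic kinases stood highest at 4.45 and 4.13, replication genes at 1.92 and 2.09, and genes of OPC exit and differentiation at -0.40 and -0.47.

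Genes of OPC exit and differentiation were somewhat lower in sum, and none of the 15 compared passed the limit in either direction in both libraries, with median log2 ratios of -0.31 and -0.52, and the summed level was 1170 against 1544 CPM in the control and 1397 against 1932 CPM in the WMI library. Bcas1, a gene of early myelinating OLs, was at 171 against 341 CPM and 306 against 446 CPM, in the control and the WMI library. Itpr2, a calcium release channel known from differentiating OLs, was at 253 against 435 CPM and 364 against 438 CPM. Tcf7l2, a Wnt effector of newly formed OLs, went opposite ways, at 194 against 117 CPM in the control and 84.3 against 207 CPM in the WMI library. In cycling myeloid-like cells the summed log2 ratios of the same list were -0.33 (-0.85 to 0.16) and -0.38 (-0.65 to -0.12), against -0.40 (-0.61 to -0.19) and -0.47 (-0.64 to -0.30) in OPC-like cells. Mitogen receptor and ligand genes, of which 0 of 20 passed, were summed at 4628 against 4797 CPM and at 5647 against 5323 CPM.

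Genes with at least 50 UMIs in cycling OPC-like cells, without the selection genes, were ranked by the smaller of the libraries' log2 ratios. The 10 highest included Cdca2, Tpx2, Kif4, Cenpe, Neil3, Nusap1, Kif23, Kif11 and Ect2. As this minimum is set on the cycling cells, it favours genes that are high there, and the ranking is a description. Cdca2, which brings protein phosphatase 1 to chromosomes, was at 147 and 151 CPM against 2.43 and 2.32 CPM. Nusap1, a microtubule-bundling protein, was at 124 and 182 CPM against 2.91 and 3.10 CPM, and Kif23, a kinesin of the central spindle, at 159 and 120 CPM against 2.91 and 3.10 CPM. Neil3, a DNA glycosylase outside the gene lists used here, was at 124 and 186 CPM against 2.91 and 3.87 CPM. In the other OPC-like cells the levels of Cdca2, Nusap1, Kif23 and Neil3 rest on 5 to 10 UMIs per library. The 5 lowest included Arhgap24, Unc13c, Gpr158 and Bcas3. Arhgap24, a GTPase activating protein, had log2 ratios of -1.30 (-2.11 to -0.58) and -0.79 (-1.28 to -0.33), and Gpr158, an orphan receptor, -0.66 (-1.07 to -0.28) and -1.24 (-1.74 to -0.78).

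Between libraries, cycling OPC-like cells were close in mitotic genes. The summed S list was higher in the WMI library in cycling and in other OPC-like cells, in the cycling cells partly through 1 deep control cell. The comparison of cycling cells rests on 22 and 31 cells, with 170037 and 225436 UMIs, fewer in the control than the 30 cells planned as a minimum. The G2/M list was at 4370 CPM in the control and 4458 CPM in the WMI library, a log2 ratio, WMI over control, of 0.03 (-0.11 to 0.17), and the spindle list at 2864 and 2693 CPM, a log2 ratio of -0.09 (-0.26 to 0.09). The S list was at 1706 and 2284 CPM, a log2 ratio of 0.42 (0.21 to 0.63), while in the other OPC-like cells that ratio was 0.21 (0.09 to 0.33). The intervals of the last pair overlapped. In the control, 1 cycling cell held 31798 of the 170037 UMIs but 9 of the 290 S list UMIs, which lowered the summed level. That cell held 67 of the 743 G2/M list UMIs, which lowered the control's G2/M level too. Per 10000 UMIs of a cell, the S list had a median of 19.3 UMIs in the control (lowest 2.16, highest 48.9). In the WMI library the median was 23.0 (lowest 0, highest 60.4). Chromatin and DNA methylation upkeep genes had a log2 ratio of 0.56 (0.19 to 0.92) in cycling and 0.32 (0.16 to 0.49) in other OPC-like cells.

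Over the 1423 genes with at least 50 UMIs in cycling OPC-like cells, the median log2 ratio of WMI over control was -0.01, with -0.70 and 0.71 as the 5th and 95th percentiles over genes with UMIs in both libraries. The 5 highest were Xist, Ctsd, mt-Cytb, Apoe and mt-Nd1. Ctsd, a lysosomal protease, had 2 control and 61 WMI UMIs, a log2 ratio of 4.52 (2.61 to 7.60), and in other OPC-like cells that ratio was 3.29 (2.94 to 3.66). Apoe, a lipid carrier abundant in activated myeloid cells, was at 153 and 736 CPM, a log2 ratio of 2.27 (1.67 to 2.92), against 3.08 (2.88 to 3.28) in other OPC-like cells. In the same cycling OPC-like cells the 12 myeloid markers were summed at 129 CPM in the control, with 6 detected, P2ry12 and Cx3cr1 at 5 UMIs each, and at 381 CPM in the WMI library, with 10 detected. The other OPC-like cells had 199 and 571 CPM with all 12 detected. The part of RNA from myeloid cells in these differences was not tested. The 5 lowest included Etl4, Ahi1, Rnf43 and Sidt1. Etl4 was at 794 and 288 CPM, a log2 ratio of -1.46 (-1.91 to -1.02), against -0.40 (-0.53 to -0.27) in other OPC-like cells, and Rnf43, a ligase that removes Wnt receptors, at 282 and 106 CPM, a log2 ratio of -1.41 (-2.18 to -0.67), against -0.70 (-0.94 to -0.47). The deep control cell described above enters all these ratios of cycling cells, and its part in them was not tested.

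Cycling myeloid-like cells lay mostly in the same cluster in both libraries, and the rest in a further one. In the control 8 of 9 were in cluster 5, led by microglial genes such as Siglech, and 1 was in cluster 8, led by Plin2, Gpnmb and Mrc1, genes of lipid-laden and perivascular macrophages. In the WMI library 17 were in cluster 5 and 11 in cluster 8. Within cluster 5 the cycling share was 1.79% in the control, 8 of 446 (0.778% to 3.50%), and 2.61% in the WMI library, 17 of 651 (1.53% to 4.15%). Within cluster 8 it was 1.28% in the WMI library, 11 of 857 (0.642% to 2.28%), and the control had 1 of 22 cells.

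Levels of activated and homeostatic genes in cycling myeloid-like cells were near those of the other cells in control cells of cluster 5 and WMI cells of cluster 8, slightly below them on both lists in WMI cells of cluster 5, and lower in the 1 control cell of cluster 8. That cell had 659 CPM of activated genes (301 to 1251) against 2908 CPM in the others (2519 to 3340), and 805 CPM of homeostatic genes (402 to 1441) against 1614 CPM (1328 to 1944). The homeostatic intervals overlapped. Mrc1 alone gave 109 of the 200 activated-gene UMIs of the others and 0 in that cell. Activated myeloid genes summed to 6403 CPM in WMI cycling cells of cluster 5 (5862 to 6981) and 7158 CPM in the others (7046 to 7272), and to 10185 CPM in WMI cycling cells of cluster 8 (9359 to 11064) and 10667 CPM in the others (10544 to 10791). In the control, cluster 5 had 953 CPM in cycling cells (652 to 1345) and 837 CPM in the others (791 to 884). Homeostatic microglia genes summed to 4240 CPM in WMI cycling cells of cluster 5 (3802 to 4714) and 2201 CPM in those of cluster 8 (1826 to 2629), against 4852 CPM (4760 to 4946) and 2241 CPM (2185 to 2299) in the others. Spp1, a secreted phosphoprotein of activated microglia, was at 323 CPM in WMI cycling cells of cluster 5 (211 to 474) and 124 CPM in the others (109 to 139), and had 0 UMIs in the control's cycling and other cells of that cluster. Apoe, the most abundant of the activated genes, went the other way there, at 2922 CPM (2560 to 3320) against 4200 CPM (4115 to 4288), while Ctsd, a lysosomal protease, was at 1256 CPM (1023 to 1526) against 1147 CPM (1103 to 1193). Among the 18 activated genes, Spp1 and Mrc1 had intervals in WMI cycling cells of cluster 5 wholly above those of the others, and Apoe wholly below. In cluster 8 of the WMI library Ctsd lay above, and Apoe, Mrc1 and Ms4a7 below. No share over all genes stands beside these, so they describe single genes and not the list. Igf1, a growth factor, was at 211 CPM (123 to 338) against 114 CPM (100 to 129) in cluster 5, and at 818 CPM (597 to 1095) against 697 CPM (666 to 729) in cluster 8. P2ry12, a receptor of resting microglia, was at 659 CPM in WMI cycling cells of cluster 5 and 218 CPM in those of cluster 8, near the 711 and 225 CPM of the others. Siglech, a microglial lectin, was at 199 CPM in WMI cycling cells of cluster 5 (114 to 323) against 427 CPM (400 to 456). Among the 10 homeostatic genes it alone had an interval wholly below that of the others there, again without a share over all genes. Tmem119 was at 37.3 CPM (7.69 to 109) against 103 CPM (89.8 to 117).

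Mitotic genes led in cycling myeloid-like cells too. The G2/M list was at 6223 CPM in the control and 7200 CPM in the WMI library against 625 and 708 CPM in other myeloid-like cells, and the S list at 1947 and 1905 CPM against 478 and 481 CPM. Kif11 was at 423 and 399 CPM against 2.57 and 3.70 CPM. The DNA repair and Fanconi list was at 1651 and 2105 CPM against 241 and 422 CPM, so that the other myeloid-like cells already differed between libraries.

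The balance of S and G2/M transcripts was compared between lineages and libraries. Without the selection genes, S list UMIs were 28.1% of S plus G2/M list UMIs in control cycling OPC-like cells (25.4% to 30.9%) and 33.9% in WMI ones (31.5% to 36.3%). In cycling myeloid-like cells they were 23.8% (19.7% to 28.4%) and 20.9% (18.7% to 23.3%). The intervals of the lineages overlapped in the control and did not in the WMI library, and those of the libraries did not overlap for OPC-like cells, but UMIs of the same cell are not independent, so these intervals are too narrow for a comparison of cells. By cell, S list UMIs outnumbered G2/M list UMIs in 3 of 22 control and 11 of 31 WMI OPC-like cells, and in 1 of 9 and 3 of 28 myeloid-like cells. Per 10000 UMIs of a cell, the G2/M list had a median of 42.0 UMIs in control OPC-like cells (lowest 18.3, highest 111) and 40.2 in WMI ones (lowest 12.4, highest 93.7). In myeloid-like cells the medians were 75.1 (lowest 23.4, highest 95.4) and 72.7 (lowest 7.70, highest 125). The ranges of the lineages thus overlapped on the G2/M list, with the myeloid-like medians higher. S list medians went the other way, at 19.3 and 23.0 in OPC-like cells and 15.7 and 17.2 in myeloid-like cells. Over all cycling cells the S share was 28.3% in the control and 28.6% in the WMI library.

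**Figure D5:**
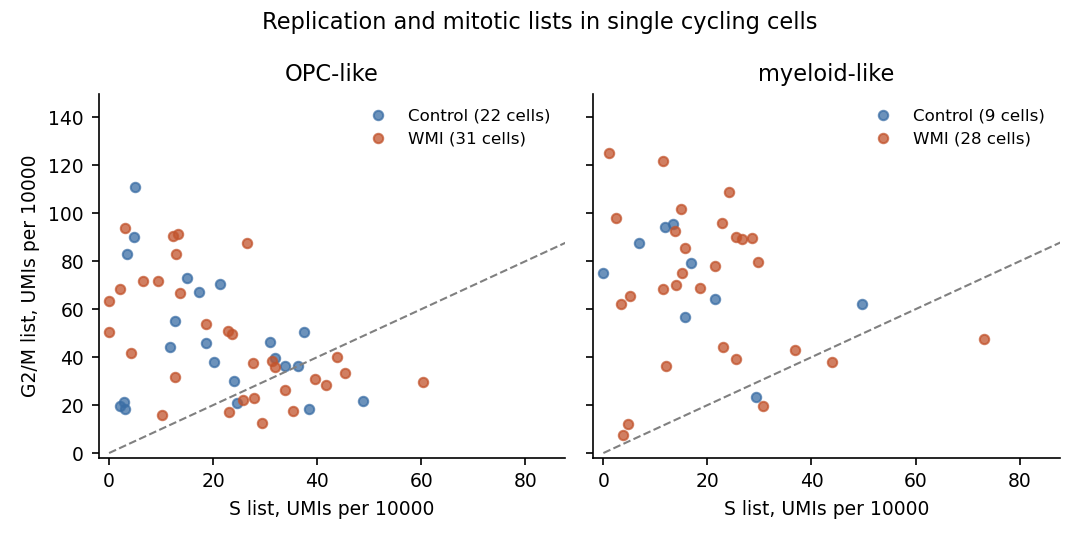
UMIs of the S list (horizontal) and the G2/M list (vertical) per 10000 UMIs in each cycling OPC-like (left) and myeloid-like (right) cell, control and WMI, with a dashed line where both are equal. Below the line lay 3 of 22 control and 11 of 31 WMI OPC-like cells, against 1 of 9 and 3 of 28 myeloid-like cells.

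The cycling cells of the neuroblast-like cluster did not all carry its name's markers. In the control, single cells held 10, 8, 7, 6, 3, 2, 1 and 0 of the 10 neuroblast markers, and in the WMI library 4, 3, 1, 1, 1 and 0. Dlx6os1, a noncoding RNA of ventral forebrain neurons and their precursors, had UMIs in 4 of 8 control and 1 of 6 WMI cycling cells, and Dcx, a microtubule protein of migrating neurons, in 6 of 8 and 1 of 6. Sox11 had UMIs in 5 of 8 and 4 of 6, against 57.4% and 60.3% of the cluster's other cells. In the control, 5 of 8 held Sp9 and 4 of 8 Dlx1, against 14.8% and 20.4% of the others. In the WMI library 1 of 6 held each. Dlx2, Sp8 and Dlx5 had 0 UMIs in the WMI cycling cells. As only 5.34%, 10.7% and 3.82% of the other WMI cells of the cluster held them, 0 in 6 cells decides nothing. Egfr, a receptor of forebrain progenitors and glial precursors, had UMIs in 6 of 8 and 4 of 6. In the WMI library 1 of the 6 cells also held 10 of the 12 myeloid markers. By own markers, 1 of the 8 control cells was called neuroblast, 4 excitatory neuron and 1 OPC, and 2 were left without a name. The WMI cells were called OPC, astrocyte, myeloid and inhibitory neuron, 1 each, and 2 were left without a name. The class profile called 8 of 8 control and 4 of 6 WMI cells neuroblast, and 2 WMI cells astrocyte. The control's cycling cells were also deep, with a median of 11707 UMIs against 4230.5 UMIs in the other cells of the cluster. The data thus go against the name for part of these cells, which are the cycling cells of a cluster led by genes such as Dlx6os1, Igfbpl1 and Meis2.

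Cycling astrocyte-like cells were few and mixed. The only control cell held 7 of 10 OPC markers beside 7 of 10 astrocyte markers and was a predicted doublet. Of the 5 WMI cells, 2 held 8 and 9 of the 12 myeloid markers, a count of 6 or more being reached by 5.88% of the other WMI astrocyte-like cells. The remaining 3 held 9, 5 and 5 astrocyte markers and at most 4 myeloid markers. Likewise, the unnamed cluster 29, which carried OPC and myeloid markers together, gave 1 control and 4 WMI cycling cells, of which 3 WMI cells held at least 6 markers of each lineage and 1 control and 2 WMI cells were predicted doublets.

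Endothelial-like cells cycled in 2 of 24 control and 1 of 16 WMI cases, and these cells held 8 to 10 of the 10 endothelial markers. A single fibroblast-like cell cycled, 1 of 83 in the WMI library and 0 of 63 in the control, which allows a control share of up to 4.76% when 0 is taken as at most 3 cells (upper limit of the exact interval 5.69%). It had 3347 UMIs, below the median of 5067 UMIs of the other cells of the class, and by its own markers was called mural, not fibroblast.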

How the data were processed

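Cortex libraries, 1 control and 1 WMI, were analysed. The authors deposited UMI counts per gene and barcode, whole-number values without normalization, for 55450 genes. Per the file headers they came from Cell Ranger 6.1.1. The labels name the build mm9 and Seurat, whereas the gene identifiers matched the GENCODE annotation of GRCm38. Cycling cells, marker lists, gene lists and the rules for naming clusters were chosen with earlier results of these data known. Barcodes were filtered as given above, leaving out 748 control and 241 WMI barcodes, none of which met the cycling rule. Kept barcodes were integrated in Seurat 5.3.0 (2000 features, 30 dimensions, without cell-cycle, histone, mitochondrial and Xist genes) and clustered at resolution 0.8, and a cluster was named where at least 4 markers and 40% of a list (60% for neurons) were detected there at set minima chosen after the clusters were seen. Clusters with markers of more than 1 lineage stayed unnamed. Doublets were predicted from simulated pairs (785 control, 542 WMI) and kept. Levels are UMIs summed over cells per 1000000 UMIs of those cells. Shares have Clopper-Pearson intervals, levels Poisson intervals, ratios conditional binomial intervals and differences of shares intervals combined from both exact limits. No test between groups was run. Where 1 side of a gene's ratio had under 3 UMIs, it was set to 3 before the 2-fold limit was applied. Genes named in OPC-like cells are the 10 highest and 5 lowest ratios of cycling over other cells, the 5 highest and lowest of WMI over control, the 4 members of each list with most UMIs, the markers and the selection genes. Other genes named were chosen after their values were seen, and some genes that the rule names are not reported here. The ratio script was tested on simulated data.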

Additional observations from a re-analysis of the deposited data

How the results depend on the processing

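The difference in the overall cycling share, 0.493 points, stayed above 0 in all 16 alternatives and moved beyond its counting interval in 3. It was 0.992 with at least 2 of the 6 genes, 0.196 after thinning to 2000 UMIs and 0.0431 after thinning to 1000 UMIs. The WMI minus control difference in the cycling share of OPC-like cells ranged from -1.14 to 1.50 points over 20 alternatives, 7 above and 13 below 0, and that of myeloid-like cells from -0.531 to 0.818 points over 21. That of astrocyte-like cells ranged from -0.0228 to 0.900. The OPC-like share of cycling cells differed by -13.3 to 4.96 points and the myeloid-like share by 4.23 to 22.1 points, above 0 in all 21. Naming each cell by its likeliest class profile, leaving out the mixed cluster 29, counting cluster 5 alone as myeloid and a minimum of UMIs on the other cells alone were chosen after seeing the data. The profile gave the class of the cluster in 109 of 120 cycling cells of named clusters, and the markers of the single cell in 71. The median log2 ratio of cycling over other OPC-like cells over cell-cycle genes was 2.20, and 1.56 to 2.91 under 4 alternatives, lowest with the minimum of 50 UMIs set on the other cells alone. A difference from the study may come from the rebuilt names. No paired analysis was possible because each group is 1 library and no result comes from a test. For the same reason no library could be left out.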
